A study of Mus musculus with 30 samples.

Results

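The 6 keratin genes Krt7, Krt8, Krt18, Krt19, Krt20 and Krt36 were followed in the mouse colon. They were chosen by name with earlier results of these data known, as keratins of simple epithelia together with the hair keratin Krt36. They are 6 of 55487 gene rows of the table and 6 of its 53 protein-coding keratin genes. Counts of members beside shares of all genes are therefore descriptions and no test of the list. RNA of whole colon from 30 mice, 5 of each of 6 genotypes, was read by 3′ tag sequencing, which counts transcripts near their 3′ end. The Xbp1 knockout and the Casp8 knockout each lacked that gene in intestinal epithelial cells, which line the gut, and the double knockout lacked both there. The TNFR1 triple knockout carried the same pair of deletions and also lacked Tnfr1 in intestinal epithelial cells, and the MLKL triple knockout carried the pair and Mlkl -/-, for which no cell type is named. WT mice served as controls. The labels name no Cre driver, age or sex. XBP1 acts in the response to endoplasmic reticulum stress. Caspase-8 is a protease of apoptosis that also holds back necroptosis, in which MLKL ruptures the cell membrane, and TNFR1 passes on the signal of TNF.

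Keratins form the intermediate filaments of epithelial cells. A filament needs a type I and a type II keratin, which pair with each other, and it is tied to neighbouring cells at desmosomes and to the underlying matrix at hemidesmosomes. In the gut, the type II keratin Krt8 and the type I keratins Krt18 and Krt19 are made along the whole crypt, whereas the type I keratin Krt20 is known as a marker of differentiated cells towards the surface. Krt7 is a type II keratin known from ducts and glands. Krt36 is a type I hair keratin, known from hair, nail and the papillae of the tongue.

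The type I members lie in the keratin cluster of chromosome 11 and the others on chromosome 15 (GRCm38). Krt20 (ENSMUSG00000035775) spans 99428403 to 99438150 on the minus strand, Krt36 (ENSMUSG00000020916) spans 100102007 to 100105626 and Krt19 (ENSMUSG00000020911) spans 100140810 to 100148665, both also on the minus strand. Krt36 and Krt19 are parted by 35.2 kb, and Krt20 lies 664 kb from Krt36. On chromosome 15, Krt7 (ENSMUSG00000023039) spans 101411043 to 101430313, Krt8 (ENSMUSG00000049382) spans 101996698 to 102004482 and Krt18 (ENSMUSG00000023043), the exception among the type I members, spans 102028180 to 102032027. Krt8 and Krt18 are 23.7 kb apart and on opposite strands.

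The promoters of Krt20 and Krt36 are shown because these keratins gave the largest differences between genotypes among the 6 members. Each runs from 250 bases before to 50 bases after the start of the gene, 5′ to 3′ on the strand of the gene, from RefSeq on GRCm38.p6. The table held 5 of the 6 members, without Krt19. The Krt20 window is chr11:99438104-99438403 and the Krt36 window is chr11:100105577-100105876, both on the minus strand, and capitals mark a match to the motif TATANA (TATA-box-like) on the strand of the gene.
Krt20: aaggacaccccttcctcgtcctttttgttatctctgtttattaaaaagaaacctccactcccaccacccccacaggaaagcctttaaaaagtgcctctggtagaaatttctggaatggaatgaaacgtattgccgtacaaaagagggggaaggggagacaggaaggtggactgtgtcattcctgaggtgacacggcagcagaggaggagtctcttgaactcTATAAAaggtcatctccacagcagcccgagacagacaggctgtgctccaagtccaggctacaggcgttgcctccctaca
Krt36: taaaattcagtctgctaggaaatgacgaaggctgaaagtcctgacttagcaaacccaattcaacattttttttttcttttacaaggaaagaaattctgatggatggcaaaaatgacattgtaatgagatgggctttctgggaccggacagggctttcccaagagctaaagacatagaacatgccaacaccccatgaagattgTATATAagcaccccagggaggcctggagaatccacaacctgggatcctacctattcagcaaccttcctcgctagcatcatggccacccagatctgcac
Relative to the start, the match lies at −29 in Krt20 and at −48 in Krt36, and Krt8 has a match at −1. On either strand, TATANA occurs in 24.7% of all 32851 promoter windows of this length. A search of both strands for TGANTCA (AP-1-like) gave no match in any of the 5 members, and this motif occurs in 7.81% of all windows. Matches to TATANA and TGANTCA can share end letters, and both motifs can match both strands at one place.

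Library totals ran from 3516790 to 5823060 reads, so 1 read stood for about 0.232 CPM (reads relative to library totals scaled by TMM) in the median library. Tags of Casp8 were at 12.1 to 46.1 CPM in the 4 genotypes that lack it by label and at 51.3 to 58.5 CPM in WT, but the library labelled Xbp1 knockout replicate 2 held 21.003 CPM, against 44.8 to 66.5 CPM in the others of its group, which goes against its label. The library labelled MLKL triple knockout replicate 5 held 10.6 CPM of Mlkl, above every WT library (5.70 to 9.84 CPM) and below every library of the double knockout (11.7 to 29.1 CPM). Tags of Tnfrsf1a, the gene of TNFR1, were at 52.2 to 75.1 CPM in the TNFR1 triple knockout against 74.2 to 112 CPM in the double knockout and 64.8 to 78.5 CPM in WT. TNFR1 triple knockout replicate 1 held the 75.1 CPM, within the WT range, and the other 4 held at most 61.2 CPM. Xbp1 tags check nothing about that deletion, since the sources used here do not give the deleted exons and tags can lie outside them. Xist and Y-linked genes marked as female 3 libraries of the Xbp1 knockout, 3 of the Casp8 knockout, 1 of the double knockout, 4 of the TNFR1 triple knockout, all 5 of the MLKL triple knockout and 1 of WT. Tags of probasin (Pbsn), a prostate secretion, were at 204 and 317 CPM in Casp8 knockout replicates 2 and 5 and those of Svs2, a seminal vesicle secretion, at 20.2 CPM in WT replicate 1, against at most 0.814 and 0.901 CPM in the 27 other libraries. Results that rest on these 3 libraries are also given without them. All 14 pan-epithelial genes were measured in the colon, and those of exocrine pancreas were each under 1 CPM in every library.

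Krt19 had the most tags of the 6 members, with 65.3% of their tags in the double knockout and 67.3% in WT. Since each transcript gives tags from its end only, these levels need no correction for length, although ends can differ in how well they are primed and mapped. In reads, Krt19 averaged 10998 per library, Krt20 averaged 2346, Krt8 1400, Krt18 1113 and Krt7 513. Krt36 rested on the fewest reads, with a mean of 61.7 and a range of 1 to 264 per library. The summed level of all 6 was 3595 ± 484 CPM in the Xbp1 knockout, 3159 ± 480 CPM in the Casp8 knockout, 5054 ± 565 CPM in the double knockout, 3941 ± 435 CPM in the TNFR1 triple knockout, 3494 ± 281 CPM in the MLKL triple knockout and 3230 ± 369 CPM in WT (SD, n = 5 each).

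**Figure D1:**
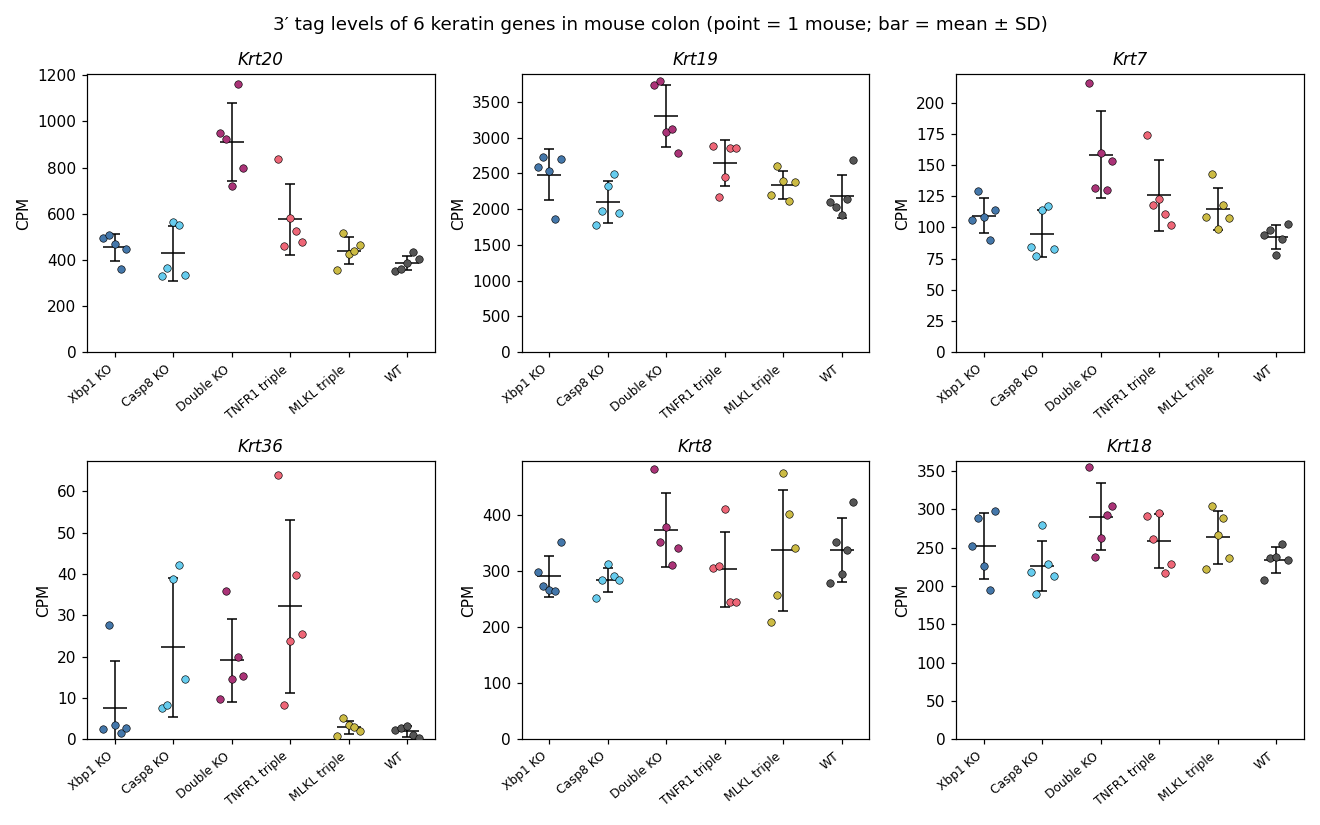
CPM (vertical axis, from 0) of each keratin in each of 30 libraries, by genotype (horizontal axis); points are mice, the long dash is the mean and the bar is the SD of 5 mice, cut off where it would fall below 0. Krt20, Krt19 and Krt7 are highest in the double knockout, and Krt36 lies between 7.45 and 63.9 CPM in every library of the Casp8, double and TNFR1 triple knockouts and between 0.259 and 5.10 CPM in the MLKL triple knockout and WT.

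In the double knockout, Krt20, Krt36, Krt7 and Krt19 rose against WT, and Krt18 and Krt8 did not pass the test. The test throughout is edgeR's quasi-likelihood F test with Benjamini-Hochberg adjusted p over 15458 genes, all 6 keratins among them, and a gene passes at an adjusted p under 0.05. So 4 of 6 members rose, where 11.1% of all genes tested rose and 21.3% passed in either direction. The median log2 fold change of the 6 was 0.69, beside 0.006 for all genes.

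Krt20, the keratin of differentiated surface cells, was at 952, 925, 721, 1162 and 797 CPM in double knockout replicates 1 to 5, against 353, 362, 386, 432 and 402 CPM in WT. Every double knockout library lay above every WT library. The mean was 2.35 times that of WT, and the log2 fold change was 1.24 ± 0.163 (SE, adjusted p = 6.15e-06). Krt20 made up 18.1 ± 2.94% of the tags of the 6 keratins in double knockout libraries, against 12.1 ± 1.20% in WT libraries (SD, n = 5 each), with a range of 15.6 to 23.1% in the double knockout that did not overlap with the 10.4 to 13.3% of WT.

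Krt36, the hair keratin, was at 9.77, 35.9, 14.5, 19.95 and 15.2 CPM in the double knockout, against 2.19, 2.60, 3.21, 0.928 and 0.259 CPM in WT. The groups did not overlap, and the means of 19.1 ± 10.1 CPM in double knockout libraries and 1.84 ± 1.21 CPM in WT libraries (SD, n = 5 each) differed by a log2 fold change of 3.31 ± 0.737 (adjusted p = 0.00168). WT libraries held few reads of this gene, so that its fold carries a wide error.

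Krt7, a type II keratin, was at 216, 132, 160, 130 and 154 CPM in the double knockout and at 93.6, 97.7, 77.6, 90.7 and 103 CPM in WT. No library of one group reached the range of the other, and the log2 fold change was 0.78 ± 0.148 (adjusted p = 3.73e-04). Krt19, the most abundant of the 6 by tags, was at 3734, 3788, 3078, 3123 and 2789 CPM in the double knockout and at 2098, 2036, 1920, 2142 and 2689 CPM in WT. Here too the groups were apart, by a smaller step (log2 fold change 0.60 ± 0.121, adjusted p = 6.63e-04). These calls of Krt20, Krt36, Krt7 and Krt19 held in every alternative fit, with each of the 10 libraries left out in turn, with sex in the model and without the 3 libraries that held prostate or seminal vesicle tags.

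The classical pair of simple epithelia gave smaller values. Krt18 averaged 291 ± 44.2 CPM in double knockout libraries and 234 ± 16.8 CPM in WT libraries (SD, n = 5 each), with 4 of 5 double knockout libraries above all WT libraries and a log2 fold change of 0.31 ± 0.123 (adjusted p = 0.0682). Its partner Krt8 averaged 373 ± 65.9 CPM and 337 ± 56.6 CPM in the same groups, and the ranges overlapped (0.15 ± 0.166, adjusted p = 0.571). The ratio of Krt8 to Krt18 was 1.29 ± 0.190 in double knockout libraries, against 1.44 ± 0.224 in WT libraries (SD, n = 5 each).

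Krt8 has a near-identical processed pseudogene, Krt8-ps (chromosome 7, 23357125 to 23358069), which matches its transcript at 98.6% over 941 bases. It was given 1.79 to 19.6 CPM, and the sources used here do not say how a read that matches both copies was counted. Across the 30 libraries, log2 levels of Krt8 and Krt8-ps had r = -0.59, and adding up both copies changed no call of Krt8. The antisense genes that overlap Krt8 and Krt7 averaged 2.11 and 0.850 CPM without TMM scaling, and no near-identical copy was found for the other 5 members.

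In whole tissue, a change in the number of epithelial cells and a change in the RNA per cell cannot be told apart. Beside the keratins, 11 of 14 pan-epithelial genes rose in the double knockout against WT (median 0.43), where 11.1% of all genes rose and 21.3% passed in either direction. Among the 11 were the adhesion genes Epcam (log2 fold change 0.42 ± 0.094, adjusted p = 0.00194) and Cdh17 (0.58 ± 0.130, adjusted p = 0.00173). All 8 smooth muscle genes fell (median −1.04), with Des, the intermediate filament of muscle, at −1.53 ± 0.203 (adjusted p = 6.97e-06). The summed pan-epithelial level was 8419 to 10244 CPM in the double knockout and 7223 to 7874 CPM in WT, and the summed smooth muscle level 2983 to 4607 CPM in the double knockout and 5969 to 8507 CPM in WT. Of 8 fibroblast genes 4 fell (median −0.44), and of 6 measured leukocyte genes 3 rose (median 0.85). The part of these non-epithelial cells in the keratin values was not tested.

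The comparison was repeated with libraries scaled to the pan-epithelial reads, which moved the median of all genes by −0.30 on the log2 scale. Krt20 (0.93, adjusted p = 1.16e-05), Krt36 (3.01, adjusted p = 0.00159), Krt7 (0.47, adjusted p = 0.00490) and Krt19 (0.30, adjusted p = 0.0233) still passed as higher in the double knockout than in WT. Krt18 stood at 0.01 and Krt8 at −0.15, and neither passed (adjusted p = 0.946 and 0.481). Among all genes, 5672 passed in either direction under this scaling, against 3291 under TMM scaling. A pass under the pan-epithelial scaling was therefore not rarer among all genes. The pan-epithelial list holds no keratin, and it is itself made of genes of which most rose.

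**Figure D2:**
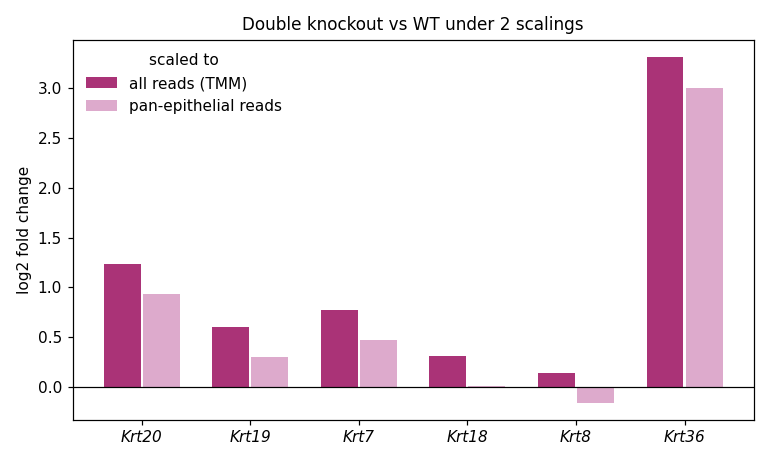
Log2 fold change of the double knockout over WT (vertical axis) for each keratin, with libraries scaled to all reads by TMM (dark bars) or to the summed reads of 14 pan-epithelial genes (light bars), without error bars. Krt20 stands at 1.24 and 0.93 and Krt36 at 3.31 and 3.01, whereas Krt8 stands at 0.15 and −0.15.

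Neither single knockout had the Krt20, Krt7 and Krt19 levels of the double knockout, and the comparisons with WT share the WT libraries. Of the 6 members, 0 passed in the Xbp1 knockout against WT, where 0.0841% of all genes passed (edgeR, with 2017 genes at an unadjusted p under 0.05). In the Casp8 knockout against WT, Krt36 rose and the 5 other members did not pass, where 1.17% of all genes passed and 0.634% rose. Of the 6 members 3 rose in the double knockout against the Xbp1 knockout, where 8.64% of all genes passed and 4.77% rose, and 4 rose against the Casp8 knockout, where 18.4% passed and 9.68% rose.

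Krt20 had 495, 507, 469, 359 and 445 CPM in Xbp1 knockout libraries 1 to 5 and 329, 364, 563, 551 and 333 CPM in the Casp8 knockout. All of these lay below every double knockout library, and both ranges overlapped with WT. The log2 fold change of the double knockout was 1.002 ± 0.162 over the Xbp1 knockout (adjusted p = 5.18e-04) and 1.09 ± 0.162 over the Casp8 knockout (adjusted p = 6.08e-05). The interaction, which asks whether the joint deletion differed from the sum of the single ones on the log2 scale, was 0.86 ± 0.228 for Krt20 with an adjusted p of 0.0502. It passed with no low-count filter, with a stricter one, by limma voom and by DESeq2, and it passed without Casp8 knockout replicate 3 or 4 or double knockout replicate 2 or 3. Without the 3 libraries that held prostate or seminal vesicle tags it was 0.72 (adjusted p = 0.188). None of the 6 members passed the interaction by edgeR, where 1.38% of all genes passed and 2807 genes had an unadjusted p under 0.05.

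Krt7 and Krt19 were also highest in the double knockout. Krt7 averaged 158 ± 34.8 CPM in the double knockout, against 109 ± 14.1 CPM in the Xbp1 knockout and 95.1 ± 19.1 CPM in the Casp8 knockout (SD, n = 5 each). Its log2 fold change in the double knockout was 0.53 ± 0.147 over the Xbp1 knockout (adjusted p = 0.0206) and 0.74 ± 0.148 over the Casp8 knockout (adjusted p = 0.00101). Krt19 averaged 3302 ± 439 CPM in the double knockout, against 2481 ± 357 CPM in the Xbp1 knockout and 2103 ± 292 CPM in the Casp8 knockout, with log2 fold changes of 0.41 ± 0.121 (adjusted p = 0.0296) and 0.65 ± 0.121 (adjusted p = 5.26e-04). Against the Xbp1 knockout, the Krt7 call ended without Xbp1 knockout replicate 4 or double knockout replicate 1, and the Krt19 call without either of these or without Xbp1 knockout replicate 3 or double knockout replicate 2 (adjusted p = 0.0518 to 0.111). Both calls against the Xbp1 knockout also ended under the pan-epithelial scaling (Krt7 0.32, adjusted p = 0.0805, and Krt19 0.19, adjusted p = 0.188), and that of Krt19 when the other genotypes were left out of the model (adjusted p = 0.104). Without the library labelled Xbp1 knockout replicate 2, Krt20 stood at 1.04 (adjusted p = 8.45e-04), Krt7 at 0.59 (adjusted p = 0.0165) and Krt19 at 0.44 (adjusted p = 0.0305). Without the 3 libraries that held prostate or seminal vesicle tags, the difference from the Casp8 knockout was 0.92 for Krt20 (adjusted p = 0.00397), 0.59 for Krt7 (adjusted p = 0.0331) and 0.59 for Krt19 (adjusted p = 0.0148).

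Krt18 was higher in the double knockout than in the Casp8 knockout (0.36 ± 0.123, adjusted p = 0.0370), at 355, 238, 263, 292 and 305 CPM against 218, 190, 279, 228 and 214 CPM. The groups overlapped, and the call ended without any one of 6 of the 10 libraries, namely Casp8 knockout replicates 1, 2 and 5 and double knockout replicates 1, 4 and 5 (adjusted p = 0.0654 to 0.139), and under the pan-epithelial scaling (0.12, adjusted p = 0.464). It also ended by limma voom, with no low-count filter, without the other genotypes in the model and without the 3 libraries that held prostate or seminal vesicle tags (0.27, adjusted p = 0.250). Krt8 passed in neither comparison, at 0.36 ± 0.166 over the Xbp1 knockout (adjusted p = 0.168) and 0.39 ± 0.166 over the Casp8 knockout (adjusted p = 0.0969).

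Krt36 had another pattern. It was at 7.45, 8.30, 38.7, 42.1 and 14.5 CPM in the Casp8 knockout, all above the WT range of 0.259 to 3.21 CPM, with a log2 fold change of 3.56 ± 0.733 over WT (adjusted p = 0.0112). The prostate gene Tgm4 rose in the same comparison (3.80 ± 0.688, adjusted p = 0.00383), with 71.6 and 129 CPM in Casp8 knockout replicates 2 and 5, which held 8.30 and 14.5 CPM of Krt36. Without these and WT replicate 1, Krt36 stood at 4.04 (adjusted p = 0.0248) and Tgm4 at 0.17 (adjusted p = 0.875). The Tgm4 call also ended by limma voom (2.10, adjusted p = 0.173). The double knockout and the Casp8 knockout overlapped (log2 fold change −0.25 ± 0.555, adjusted p = 0.790), and this small difference turned to 0.31 with sex in the model, to 0.22 by limma voom and to 0.05 and 0.11 without Casp8 knockout replicates 3 and 4. Without the 3 libraries that held prostate or seminal vesicle tags it was −0.65 (adjusted p = 0.550). In the Xbp1 knockout, 4 libraries held 2.43, 3.51, 1.41 and 2.73 CPM and the library labelled Xbp1 knockout replicate 2 held 27.7 CPM. That library is the one whose Casp8 tags go against its label, and its summed smooth muscle level of 4511 CPM was the lowest of its group.

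With all 5 Xbp1 knockout libraries, Krt36 had a log2 fold change of 2.00 ± 0.795 over WT (adjusted p = 0.260) and did not pass by edgeR between the double knockout and the Xbp1 knockout (1.32 ± 0.603, adjusted p = 0.168), whereas limma voom called it (2.34, adjusted p = 0.0247). Without the library labelled Xbp1 knockout replicate 2, the difference from WT was 0.44 (adjusted p = 0.880), and the double knockout was higher than the Xbp1 knockout by 2.87 (adjusted p = 0.00401). The interaction for Krt36 was −2.25 ± 0.975 (adjusted p = 0.212), and −0.69 without that library (adjusted p = 0.742).

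**Figure D3:**
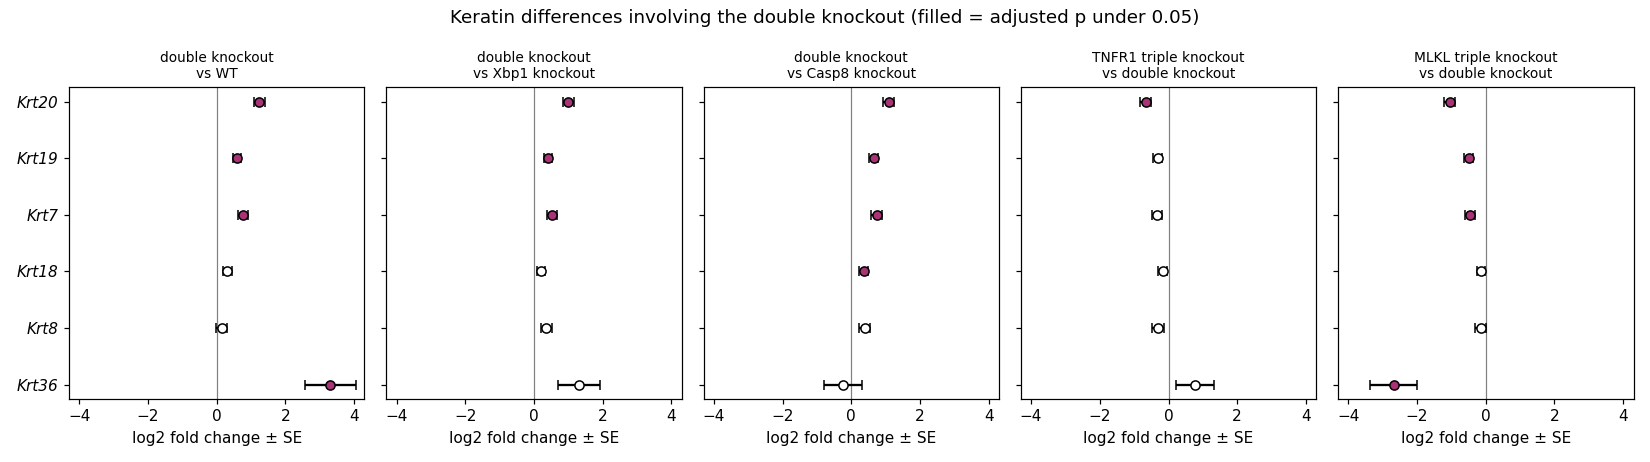
Log2 fold change ± SE (horizontal axis) of each keratin in the 5 comparisons that involve the double knockout, 5 mice per group; filled points had an adjusted p under 0.05. Krt20 lies to the right of 0 in the 3 comparisons of the double knockout and at −0.66 and −1.05 in the TNFR1 and MLKL triple knockouts against it, and Krt36 lies at −2.68 in the last.

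The triple knockouts carry the deletions of the double knockout and a further loss, of TNFR1 or of MLKL, and were set against it. In the MLKL triple knockout Krt20, Krt36, Krt19 and Krt7 fell against the double knockout, so that 4 of 6 members fell where 4.21% of all genes fell and 7.65% passed in either direction. In the TNFR1 triple knockout 1 of 6 members fell, Krt20, where 1.33% of all genes fell and 2.35% passed. The median log2 fold change of the 6 was −0.48 in the MLKL and −0.31 in the TNFR1 triple knockout, beside 0.008 and −0.004 for all genes. Both comparisons share the double knockout libraries.

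Krt20 was at 356, 516, 425, 436 and 464 CPM in MLKL triple knockout libraries 1 to 5, all below every double knockout library (log2 fold change −1.05 ± 0.162, adjusted p = 2.85e-04). Under the pan-epithelial scaling the difference was −0.86 (adjusted p = 2.54e-04), and with sex in the model it was −1.12 (adjusted p = 8.98e-04). The TNFR1 triple knockout had 839, 459, 582, 527 and 476 CPM of Krt20, of which the last 4 lay below the double knockout and replicate 1 within it (−0.66 ± 0.161, adjusted p = 0.0272). This call ended without double knockout replicate 1 or 4, without TNFR1 triple knockout replicate 2, 3, 4 or 5 (adjusted p = 0.0507 to 0.0987), and when the other genotypes were left out of the model (adjusted p = 0.161). Without TNFR1 triple knockout replicate 1 the difference was −0.84 (adjusted p = 0.00182).

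Against WT, Krt20 stood at 0.57 ± 0.161 in the TNFR1 triple knockout (adjusted p = 0.0527), with all 5 libraries above WT. That difference passed with no low-count filter, without the other genotypes in the model, by limma voom and by DESeq2. Without TNFR1 triple knockout replicate 1 it was 0.40 (adjusted p = 0.253). In the MLKL triple knockout, Krt20 stood at 0.18 ± 0.161 over WT (adjusted p = 0.625), with overlap. The mean level of Krt20 was lowest in WT (387 CPM), followed by the Casp8 knockout (428 CPM), the MLKL triple knockout (440 CPM), the Xbp1 knockout (455 CPM), the TNFR1 triple knockout (576 CPM) and the double knockout (912 CPM). Each neighbouring pair in this order overlapped in range.

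Krt36 parted the triple knockouts. MLKL triple knockout libraries held 0.776, 5.10, 3.39, 2.91 and 1.93 CPM, and TNFR1 triple knockout libraries held 63.9, 8.18, 23.9, 39.7 and 25.5 CPM. The first range lay below that of the double knockout and overlapped with WT, whereas the second overlapped with the double knockout and lay above WT. Against the double knockout, the log2 fold change was −2.68 ± 0.684 in the MLKL triple knockout (adjusted p = 0.0136) and 0.77 ± 0.544 in the TNFR1 triple knockout (adjusted p = 0.483). Without the library labelled MLKL triple knockout replicate 5, Krt36 stood at −2.57 (adjusted p = 0.0275), Krt20 at −1.07 (adjusted p = 4.43e-04) and Krt19 at −0.50 (adjusted p = 0.0151) against the double knockout.

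Against WT, Krt36 was higher in the TNFR1 triple knockout (4.09 ± 0.720, adjusted p = 0.00249), the only keratin of the 6 that passed there in the main fit, where 2.12% of all genes passed and 1.16% rose. Without TNFR1 triple knockout replicate 1 it was 3.69 (adjusted p = 0.0108). In the MLKL triple knockout 0 of 6 members passed against WT, where 0.854% of all genes passed (edgeR, with 2374 genes at an unadjusted p under 0.05), and Krt36 stood at 0.63 ± 0.907 (adjusted p = 0.799). The triple knockouts were then set against each other, a comparison added after the values had been seen. Krt36 was lower in the MLKL than in the TNFR1 triple knockout (−3.46 ± 0.671, adjusted p = 0.0105), as 1 of 6 members, where 0.259% of all genes passed and 0.0906% fell, although limma voom gave an adjusted p of 0.0669. Krt20 did not pass in that comparison (−0.39 ± 0.161, adjusted p = 0.477).

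All MLKL triple knockout mice were female by their reads and 4 of 5 double knockout mice male, so genotype and sex were partly joined. The single female double knockout library held 721 CPM of Krt20 and 14.5 CPM of Krt36, above the 356 to 516 CPM and 0.776 to 5.10 CPM of the 5 female MLKL triple knockout libraries. With sex in the model, the difference of Krt36 between the MLKL triple knockout and the double knockout was −3.52 (adjusted p = 0.00536). No male MLKL triple knockout library was there for a comparison within males. Between males alone, 4 double knockout libraries held 797 to 1162 CPM of Krt20 and 9.77 to 35.9 CPM of Krt36, against 353 to 432 CPM and 0.259 to 2.60 CPM in 4 WT libraries.

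The MLKL triple knockout had 2204, 2606, 2389, 2112 and 2373 CPM of Krt19, all below the double knockout (−0.50 ± 0.121, adjusted p = 0.00943), and this call ended when the other genotypes were left out of the model (adjusted p = 0.0538). Krt7 was at 108, 143, 98.9, 118 and 108 CPM, of which 4 lay below the double knockout (−0.46 ± 0.147, adjusted p = 0.0486). The Krt7 call ended without double knockout replicate 1, 3 or 5, without MLKL triple knockout replicate 1, 3 or 4 or the library labelled MLKL triple knockout replicate 5 (adjusted p = 0.0648 to 0.183), and under the pan-epithelial scaling (−0.28, adjusted p = 0.143). It also ended by limma voom and without the other genotypes in the model. In the TNFR1 triple knockout, Krt19 stood at −0.32 ± 0.121 (adjusted p = 0.143) and Krt7 at −0.34 ± 0.146 (adjusted p = 0.210) against the double knockout.

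Krt8 and Krt18 passed in neither triple knockout against the double knockout or WT. The largest of these differences was −0.30 ± 0.166 for Krt8 in the TNFR1 triple knockout against the double knockout (adjusted p = 0.342). Krt8 spread most among MLKL triple knockout libraries, with 208, 256, 475, 401 and 341 CPM. Replicates 3 and 4 of that group and double knockout replicate 1, with 475, 401 and 482 CPM of Krt8, had the lowest share of mitochondrially encoded reads of the 30 libraries (13.3, 14.6 and 10.3%) and 3.88, 4.03 and 1.79 CPM of Krt8-ps. Their part in the Krt8 values was not tested.

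The partners of keratin filaments were read beside them. Where 11.1% of all genes rose in the double knockout against WT, 6 of 14 genes for keratin linkers and desmosomes rose and 0 fell (median 0.31). They include Jup, plakoglobin of the desmosomal plaque (0.64 ± 0.119, adjusted p = 2.73e-04), Dsc2, a desmosomal cadherin (0.90 ± 0.199, adjusted p = 0.00165), Perp, a desmosome-associated membrane protein (0.52 ± 0.106, adjusted p = 8.05e-04), and Itga6, an integrin subunit of hemidesmosomes (0.42 ± 0.103, adjusted p = 0.00413). Under the pan-epithelial scaling Itga6 (0.12, adjusted p = 0.385) and Perp (0.21, adjusted p = 0.0704) no longer passed. In the MLKL triple knockout against the double knockout, 2 of the 14 fell (median −0.30), where 4.21% of all genes fell. In the TNFR1 triple knockout against the double knockout 0 passed (median −0.10), where 2.35% of all genes passed.

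Of 20 differentiated colonocyte genes, 7 rose and 3 fell in the double knockout against WT (median 0.08), where 11.1% of all genes rose and 21.3% passed in either direction. Emp1, a membrane protein of the surface epithelium, rose (1.56 ± 0.189, adjusted p = 2.41e-06), as did the water channel Aqp4 (2.67 ± 0.348, adjusted p = 5.56e-06), and the sugar-phosphate transporter Slc37a2 fell (−1.91 ± 0.274, adjusted p = 1.89e-05). Among 12 measured repair genes of 16 listed, 7 rose and 0 fell (median 1.08), with the growth factors Hbegf (1.73 ± 0.225, adjusted p = 5.56e-06) and Areg (1.57 ± 0.389, adjusted p = 0.00410) and the membrane-binding Anxa1 (1.29 ± 0.214, adjusted p = 9.20e-05). Of 12 epithelial transcription factors 3 rose, with Cdx2, a regulator of intestinal identity, at 1.31 ± 0.299 (adjusted p = 0.00216). These 3, Cdx2, Elf3 and Cdx1, are also on the pan-epithelial list and were counted there among the genes that rose.

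In the MLKL triple knockout against the double knockout, 4 of the 12 measured repair genes fell (median −0.76), Hbegf among them (−1.61 ± 0.224, adjusted p = 8.92e-05). Of all genes 4.21% fell and 7.65% passed in either direction in that comparison. Of the 20 colonocyte genes 2 rose and 4 fell (median 0.007). Smooth muscle genes rose for 5 of 8 (median 0.58), with Des at 0.81 ± 0.200 (adjusted p = 0.0113). In the TNFR1 triple knockout against the double knockout, where Krt20 fell and 2.35% of all genes passed, 5 of the 8 smooth muscle genes also rose (median 0.67). The part of this in the keratin values was not tested. In the Casp8 knockout against WT, Krt36 rose, as did 0.634% of all genes. There 0 repair genes and 0 pan-epithelial genes passed, and 3 colonocyte genes rose. These were Aqp4 (2.29 ± 0.345, adjusted p = 5.34e-04), the receptor Gucy2c (1.08 ± 0.190, adjusted p = 0.00292) and the sodium-proton exchanger Slc9a3 (2.07 ± 0.431, adjusted p = 0.0116).

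The table held 47 further protein-coding keratin genes, of which 8 passed the filter on low counts and 12 of the others had no read in any library. The highest mean level among the 39 not tested was 1.16 CPM. In the double knockout against WT 2 of the 8 rose, where 11.1% of all genes rose. These were Krt84 and Krt13, both of low level. WT libraries held at most 1.65 CPM of Krt84 and 0.687 CPM of Krt13. A gene could pass the filter through other groups alone, so the filter itself favoured genes raised over WT. Krt84, a type II hair keratin, was at 3.09, 5.35, 3.77, 3.69 and 6.35 CPM in the double knockout and at 1.10, 1.65, 0, 0.928 and 1.04 CPM in WT. The groups did not overlap (log2 fold change 2.20 ± 0.627, adjusted p = 0.0118), and the call held without each library in turn.

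The MLKL triple knockout had 1.55, 1.76, 0.727, 0.895 and 0.242 CPM of Krt84. All lay below the double knockout (−2.04 ± 0.612, adjusted p = 0.0369), and the call did not hold without any one of 7 of the 10 libraries (adjusted p = 0.0523 to 0.0891), with sex in the model (adjusted p = 0.0511) and by limma voom (adjusted p = 0.177). The 7 libraries were double knockout replicates 2, 4 and 5, MLKL triple knockout replicates 1, 3 and 4 and the library labelled MLKL triple knockout replicate 5. In the TNFR1 triple knockout it spread from 0 to 10.4 CPM and was higher than in WT (2.34 ± 0.621, adjusted p = 0.0401), but the call ended without TNFR1 triple knockout replicate 1, 4 or 5 or any one WT library (adjusted p = 0.0583 to 0.157), by limma voom (adjusted p = 0.247), with sex in the model (adjusted p = 0.193) and without the 3 libraries that held prostate or seminal vesicle tags (adjusted p = 0.0870). Over the 30 libraries, r of log2 CPM between Krt36 and Krt84 was 0.71, and 0.52 once each genotype was centred.

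Krt13, a type I keratin of stratified epithelia, was at 0.326, 1.02, 3.37, 2.22 and 0.454 CPM in the double knockout and at 0.219, 0, 0.687, 0.232 and 0 CPM in WT. These are few reads and the groups overlapped (2.50 ± 0.903, adjusted p = 0.0454). The call ended without double knockout replicate 3 or 4 or WT replicate 1, 2, 4 or 5 (adjusted p = 0.0780 to 0.167) by limma voom (adjusted p = 0.0608) and without the 3 libraries that held prostate or seminal vesicle tags (adjusted p = 0.0803). It passed against WT in the TNFR1 triple knockout as well (3.23 ± 0.843, adjusted p = 0.0371), and that call ended without TNFR1 triple knockout replicate 1 or 4 or WT replicate 1, 2, 4 or 5, with sex in the model and without those 3 libraries (adjusted p = 0.0769 to 0.231).

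Krt23, a type I keratin, was at 22.8, 12.7, 8.13, 15.3 and 12.2 CPM in the double knockout, against 9.21, 7.32, 5.72, 9.28 and 11.4 CPM in WT, and MLKL triple knockout libraries held 6.21, 4.51, 3.64, 2.68 and 2.90 CPM. The last all lay below the double knockout (−1.84 ± 0.299, adjusted p = 3.91e-04). Krt23 also fell in the TNFR1 triple knockout, at 5.09, 3.04, 8.84, 7.57 and 6.08 CPM, against the double knockout (−1.21 ± 0.283, adjusted p = 0.0222). That call ended without double knockout replicate 1 or 4 or TNFR1 triple knockout replicate 2 or 5, with sex in the model and without the other genotypes in the model (adjusted p = 0.0556 to 0.135). Krt23 was higher in the double knockout than in the Casp8 knockout (1.56 ± 0.296, adjusted p = 6.10e-04) and stood at 0.74 ± 0.276 over WT (adjusted p = 0.0536). Against the Xbp1 knockout it was 1.11 ± 0.282 (adjusted p = 0.0126), a call that ended without double knockout replicate 1 (adjusted p = 0.0722). Its interaction passed (1.93 ± 0.416, adjusted p = 0.0226) and ended with sex in the model (adjusted p = 0.0920), without Casp8 knockout replicate 1 or double knockout replicate 1 (adjusted p = 0.0508 and 0.0547) and without the 3 libraries that held prostate or seminal vesicle tags (adjusted p = 0.0992).

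**Figure D4:**
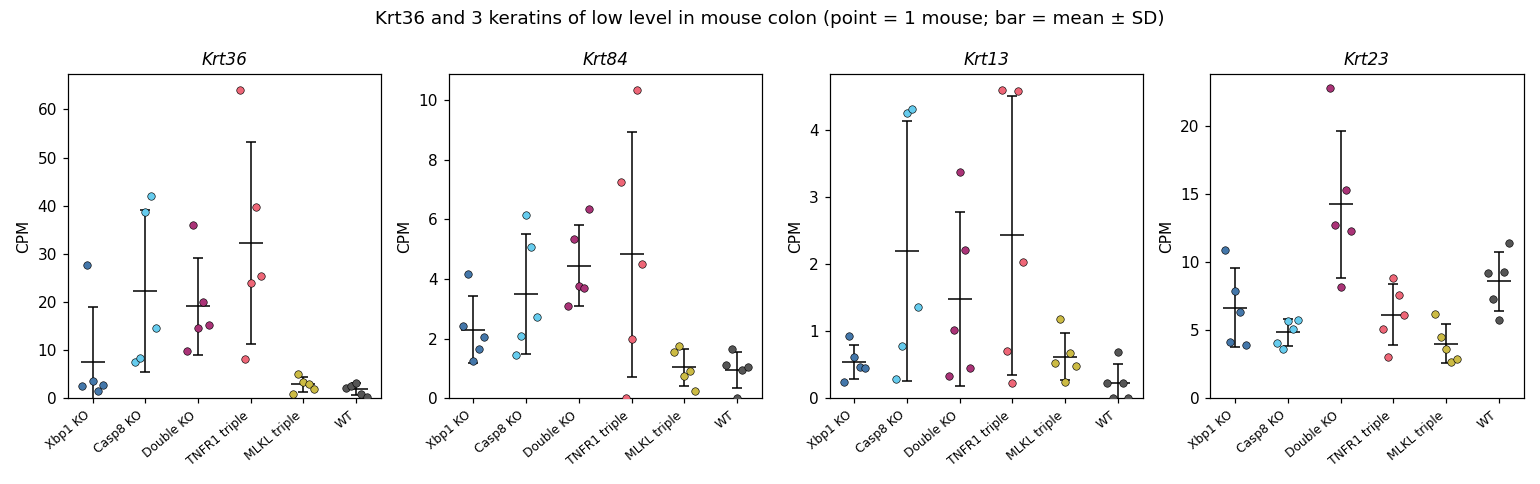
CPM (vertical axes, from 0, each panel with its own scale) of Krt36 and of Krt84, Krt13 and Krt23 in each of 30 libraries, by genotype; points are mice, the long dash is the mean and the bar is the SD of 5 mice, cut off below 0. Krt84 lies between 3.09 and 6.35 CPM in the double knockout and at or below 1.76 CPM in the MLKL triple knockout and WT, and Krt23 is highest in the double knockout.

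Markers of squamous epithelium, urothelium and mesothelium, which a colon sample could hold, were low. Of 20 squamous epithelium genes, Sprr1b, Sprr3 and Dsg1a had no read in any library, and Krt1, Krt4, Dsc3, Ivl and Krtdap were under 1 CPM throughout. The summed squamous level was 13.4 to 26.4 CPM in the double knockout, 15.5 to 35.2 CPM in the MLKL triple knockout and 18.3 to 26.1 CPM in WT, and these ranges overlapped. The list holds no hair keratin, and the part of squamous tissue in the Krt36 values was not tested. Of the 6 squamous genes tested, 1 rose in the double knockout against WT, which was Krt13, where 11.1% of all genes rose. Among these 6, Krt10, Krt13, Krt14, Krt15 and Krt17 were also counted with the further keratins above. The 4 urothelium genes summed to 7.64 to 14.8 CPM in the double knockout and 16.5 to 25.1 CPM in WT, with Upk2 and Upk3a under 1 CPM. The 5 mesothelium genes summed to at most 6.55 CPM in any library. The 9 prostate and seminal gland genes summed to 806 to 2118 CPM in the double knockout and 921 to 1555 CPM in WT. Spink1 (373 to 1511 CPM) and Hoxb13 (247 to 599 CPM) made up most of this in every library, whereas Pbsn was at most 0.814 CPM in the double knockout and at 0 in WT. In the MLKL triple knockout, all female by its reads, Spink1 was at 610 to 785 CPM and Hoxb13 at 364 to 498 CPM. The sum therefore does not mark male glands. Of the 3 tested, 0 passed in the double knockout against WT. Against the Casp8 knockout, Spink1 (0.65 ± 0.228, adjusted p = 0.0424) and Hoxb13 (0.58 ± 0.140, adjusted p = 0.00444) were higher and Tgm4 was lower (−3.16 ± 0.644, adjusted p = 0.00111) in the double knockout. The part of the prostate and seminal vesicle tags in other keratin values was not tested beyond the fits without those libraries.

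The 6 keratins were related to each other unevenly across the 30 libraries, which share genotypes. On the log2 CPM scale, Krt20 had r = 0.85 with Krt19 and 0.82 with Krt7, and 0.61 and 0.60 once each genotype was centred. Krt18 had r = 0.77 with Krt7 and 0.54 with its partner Krt8. Krt36 had r = 0.59 with Krt20 and −0.09 with Krt8.

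By highest r of log2 CPM over the 30 libraries, genes most like Krt20 were Sdcbp2 (0.91), Pde9a (0.89) and Clca4b (0.89). Those most like Krt36 were Arc (0.86), the claudin Cldn4 (0.83), the fatty acid hydroxylase Fa2h (0.78) and Nolc1 (0.77). Within genotypes, r was 0.76 for Sdcbp2 with Krt20 and 0.69 for Arc with Krt36, the second at a mean of 2.54 CPM of Arc. Krt19 and Krt7 had Tmem54 in common among their nearest genes (0.89 and 0.86), and Krt19 also had Usp37 (0.88), Ywhaz (0.86) and villin, Vil1 (0.85). Krt7 had Ap1s1 (0.88), Lrp10 (0.86) and Vdac2 (0.84). The nearest genes of Krt8 were the respiratory chain subunits Cox7b (0.88) and Ndufv3 (0.84) with Pla2g10 (0.84) and Trappc2l (0.83), and those of Krt18 were Rer1 (0.81), Atg5 (0.78), Ywhab (0.76) and Bop1 (0.75).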

How the data were processed

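Per the labels' protocols, total RNA of each colon was made into Lexogen QuantSeq forward libraries. The authors deposited 1 table of estimated counts per Ensembl gene, in which 11.2% of non-zero values were not whole. The tools, per the submitters' processing notes, were R 4.0.0, featureCounts 2.01, Subread and cutadapt 3.2, on GRCm38 (mm10). The sources used here give neither the strand setting nor the treatment of reads that match several genes, so a gene and an antisense partner cannot be told apart. No molecular identifiers are named, so reads can hold PCR copies.

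Spike-in rows (92, with 0 reads) were left out, and estimated counts were rounded, which changed a library total by at most 0.00321%. Genes kept by filterByExpr (15458 of 55487) entered 1 fit of all 30 libraries with a coefficient per genotype (R 4.3.3, edgeR 4.0.16, TMM, quasi-likelihood F test). P-values are two-sided and were adjusted by Benjamini-Hochberg within each of 10 comparisons and 1 added later. The procedure was tested on simulated counts with the same spread setting for all genes. This trial did not cover genes of wider spread. SE was taken as log2 fold change over the square root of F. CPM are TMM-scaled, and correlations are of log2 CPM with a prior count of 2. Near-identical copies were transcripts matching at 95% or more over at least 200 bases.

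The members and lists were chosen with earlier results of these data known. Named genes were the 6 members, other keratins that passed the filter and differed, up to 4 passing genes of smallest p per list, and the 4 genes of highest r per member. One result under this rule is not reported here. The fit was repeated by limma 3.58.1 voom, by DESeq2 1.42.0 and with DESeq2 size factors in edgeR. It was also repeated with every gene row that held any read (no low-count filter) and with a filter of 5 CPM in 5 libraries. Further fits were without the other genotypes, with replicate block or sex as a term, scaled to pan-epithelial reads and without each library. Added after the values were seen were the comparison of the triple knockouts, a fit without the 3 libraries with at least 5 CPM of Pbsn, Svs2, Svs4 and Svs5 in sum, and Krt8 summed with its pseudogene.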

Additional observations from a re-analysis of the deposited data

Results flagged for a closer look

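In 3 of the 36 combinations of a keratin and a genotype, 1 library stood apart from the other 4 by a gap of more than 0.71 of the group's range, and chance alone gives about 1 such group in 20. The library labelled Xbp1 knockout replicate 2 held 27.7 CPM of Krt36, where the next of its group held 3.51 CPM (gap 0.920 of the range). Xbp1 knockout replicate 4 held 1858 CPM of Krt19, where the next held 2532 CPM (0.773). WT replicate 5 held 2689 CPM of Krt19, where the next held 2142 CPM (0.711).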

How the results depend on the processing

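Of the alternative values of a keratin's log2 fold change (6 members, 11 comparisons, without the pan-epithelial scaling), 1221 kept direction and side of the threshold, 37 no longer passed, 18 newly passed and 25 changed sign. For the TNFR1 triple knockout against WT, 2 members passed in place of 1, with Krt20 beside Krt36, in 4 settings. These were no low-count filter, leaving the other genotypes out of the model, limma voom and DESeq2. With single libraries left out, 1 to 2 members passed there. For the double knockout against the Xbp1 knockout, 1 to 4 passed in place of 3 with single libraries left out, and for the TNFR1 triple knockout against the double knockout 0 to 2 in place of 1, with 0 when the other genotypes were left out. Leaving them out gave 2 in place of 4 for the MLKL triple knockout against the double knockout. The interaction gave 1 in place of 0 with no filter, a stricter filter, limma voom and DESeq2, and 0 to 1 with libraries left out. For the MLKL against the TNFR1 triple knockout, limma voom gave 0 in place of 1. The cause was not tested.

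Small differences that did not pass changed sign. With sex in the model these were Krt7 in the Casp8 knockout against WT (−0.020), Krt8 (0.093) and Krt36 (−0.085) in the MLKL triple knockout against WT, and Krt36 in the double against the Casp8 knockout (0.31, and 0.22 by limma voom). Under the pan-epithelial scaling they were Krt7 in the Casp8 knockout against WT (−0.028), Krt8 in the double knockout against WT (−0.15), Krt19 in the MLKL triple knockout against WT (−0.013), Krt18 in the double against the Xbp1 knockout (−0.0034), and Krt8 and Krt18 in the MLKL triple against the double knockout (0.046 and 0.043). Limma voom gave 0.0019 for Krt7 in the MLKL against the TNFR1 triple knockout. With single libraries left out, the ranges were −0.047 to 0.10 for Krt7 and −0.12 to 0.037 for Krt19 in the Casp8 knockout against WT, −0.17 to 0.13 for Krt8 in the MLKL triple knockout against WT, and −0.61 to 0.11 for Krt36 in the double against the Casp8 knockout. In the MLKL against the TNFR1 triple knockout they were −0.21 to 0.022 for Krt7, −0.0064 to 0.29 for Krt8 and −0.030 to 0.085 for Krt18. Without the 3 libraries that held prostate or seminal vesicle tags, a setting added after the values were seen, Krt18 and Krt19 in the Casp8 knockout against WT stood at 0.0061 and 7.7e-06. Cdx1, which passed between the double knockout and WT at 0.28 (adjusted p = 0.0289), stood at −0.022 under the pan-epithelial scaling.

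Samples share replicate numbers across genotypes. Deviations of same-numbered libraries had a mean correlation of −0.0003 over 75 pairs, 19 of them (25.3%) above 0.1. For differently numbered libraries the mean was 0.0003 over 300 pairs, with 18% above 0.1. With the replicate block, Krt18 in the double against the Casp8 knockout (0.37, adjusted p = 0.0523) and Krt7 in the MLKL triple against the double knockout (−0.45, adjusted p = 0.0669) no longer passed, and no other call of the 6 keratins changed, while Krt84 in the TNFR1 triple knockout against WT no longer passed (adjusted p = 0.0650). The number of all genes that passed moved more, for example 63 to 931 with single libraries left out and 21 without the other genotypes, in place of 363, for the TNFR1 triple against the double knockout, and 78 in place of 181 for the Casp8 knockout against WT, 1238 in place of 2843 for the double against the Casp8 knockout, 7 in place of 213 for the interaction and 5 in place of 13 for the Xbp1 knockout against WT without the 3 libraries that held prostate or seminal vesicle tags. Krt36, Krt84 and Krt13 had few reads in WT, and the part of depth in their errors was not tested.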
